A study of Bos taurus with 18 samples.

Results

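The miR-15/16 family is a group of microRNAs (miRNAs) that share the bases with which a miRNA pairs to its target mRNAs. Its members bta-miR-15a, bta-miR-15b, bta-miR-16a, bta-miR-16b, bta-miR-195 and bta-miR-497 were taken by name, 6 of the 1071 miRNAs in the deposited tables, and all 6 were followed in all 18 libraries. The libraries came from the plasma of 3 Japanese Black steers, each bled at about 20, 25 and 30 months of age during fattening. Each plasma sample gave an exosomal (EX) library, made from RNA inside the small vesicles that cells release, and a non-exosomal free circulating (FC) library, made from RNA outside them. There were thus 3 libraries, 1 per steer, in each combination of fraction and age, and no treatment was given. All steers were of the same breed, sex and farm, and the fractions were separated with a spin-column kit. The tables hold miRNAs only, so the labels EX and FC could not be checked against proteins of exosomes.

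A mature miRNA guides the silencing complex to mRNAs that match its seed, the bases near its 5′ end, and these mRNAs are then destabilised or less translated. The miR-15/16 family is known for holding back cell division and favouring cell death, through targets such as cyclins and the survival factor BCL2. miR-16 is abundant in blood cells, and because red cells hold much of it, its level in plasma is known to rise with haemolysis.

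The mature sequences, as the deposited table gives them, are shown because the seed defines the family and the 3′ ends decide whether reads can be told apart. The seed, bases 2 to 8, is in capitals.
bta-miR-15a: uAGCAGCAcauaaugguuugu
bta-miR-15b: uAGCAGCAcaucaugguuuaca
bta-miR-16a: uAGCAGCAcguaaauauuggug
bta-miR-16b: uAGCAGCAcguaaauauuggc
bta-miR-195: uAGCAGCAcagaaauauuggca
bta-miR-497: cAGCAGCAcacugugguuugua

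The 6 members were identical from base 2 to base 9, and their lengths were 21 or 22 bases. bta-miR-497 started with C and the other 5 with U. bta-miR-16b and bta-miR-16a matched at 20 of 21 positions counted from the 5′ end. They differed by C21U (bta-miR-16b to bta-miR-16a), and bta-miR-16a carried an added base after it. bta-miR-195 differed from bta-miR-16b by G10A and U11G, counted in the same way. bta-miR-15a and bta-miR-15b matched at 18 of 21 positions. A read that ends before base 21 can thus belong to either miR-16. Counts that were not whole numbers, a sign of reads divided between miRNAs, occurred for bta-miR-16a in 16 libraries, for bta-miR-16b in 15, for bta-miR-195 in 12 and for bta-miR-15a and bta-miR-15b in 9 each. bta-miR-497 had none. The split between bta-miR-16a and bta-miR-16b is therefore less certain than their sum.

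In the RefSeq gene table of assembly ARS-UCD2.0, the members form 3 pairs of neighbouring genes, and the genes of each pair start within 1000 bases of each other. MIR15A lies beside MIR16A in the uncharacterised gene LOC100847818, MIR15B beside MIR16B in SMC4, a gene for a chromosome-condensing protein, and MIR195 beside MIR497 in the uncharacterised gene LOC107131510. Among all 1071 miRNAs of the table, 7 had the seed AGCAGCA at bases 2 to 8 (0.654%). The only one that is not a member was bta-miR-424-5p. The table also held its genomic neighbour bta-miR-503-5p, which has the same bases 2 to 7 and another base at position 8.
bta-miR-424-5p: cAGCAGCAauucauguuuuga
bta-miR-503-5p: uAGCAGCGggaacaguacug

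The libraries held 991354 to 2778618 miRNA counts in EX and 3615234 to 12088735 in FC. The 30 months libraries were the shallowest of FC (3615234 to 4871908), and in EX they held 991354 to 1988408. They also held fewer kinds of miRNA, with 245 to 287 detected in EX at 30 months against 365 to 436 at 20 and 25 months, and 384 to 440 against 566 to 683 in FC. The members stayed far from the detection limit, since their lowest count in any library was 109. PCR can turn a molecule into many reads, so depth alone overstates the precision. Blood-cell miRNAs differed with age as well. Both lymphocyte miRNAs, bta-miR-150 and bta-miR-342, fell from 25 to 30 months in EX and in FC, and in EX their summed CPM (counts scaled to the same library total) ranged from 113415 to 324692 at 25 months and from 13723 to 27464 at 30 months. Of the 3 red-cell miRNAs, bta-miR-451 fell in EX (log2 fold change −2.20, FDR = 0.0269, where FDR is the adjusted p of the edgeR quasi-likelihood test), while bta-miR-486 and bta-miR-144 did not pass the test. Scaled to library totals only, bta-miR-451 did not pass it either (−1.78, FDR = 0.0552). In FC bta-miR-451 had −1.68 (FDR = 0.0516) and was lower in 3 of 3 steers without overlap, and none of the 3 passed the test. The red-cell list summed to 28558 to 92244 CPM in EX at 25 months and 34776 to 54074 CPM at 30 months, and to 18948 to 46802 and 21521 to 34381 CPM in FC, with none of the 3 listed at 0. The usual haemolysis index, log2 of bta-miR-451 over bta-miR-23a, ranged from 0.55 to 1.62 in EX at 25 months and from −0.89 to −0.21 at 30 months. The FC range went from −0.12 to 0.54 at 25 months and from −1.24 to −0.40 at 30 months. The part of depth and of these cells in the changes of the family was not tested, and fewer releasing cells cannot be told apart from less RNA per cell.

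In EX the 6 members held 13.6 ± 3.07% of the counts at 20 months, 15.1 ± 3.19% at 25 months and 15 ± 4.07% at 30 months (mean ± SD, n = 3 steers). In FC they held 13.7 ± 2.16%, 13.2 ± 2.38% and 13.4 ± 3.46%. On this scale the differences between ages were smaller than the spread between steers. With effective library sizes by the trimmed mean of M values (TMM), which correct for composition, the EX share was 14.5 ± 4.14%, 17.4 ± 4.28% and 12.6 ± 3.81%, so the direction at 30 months turned. The 5 members other than bta-miR-16b together held 2.06 ± 0.289%, 2.13 ± 0.234% and 1.63 ± 0.225% of the FC counts, and here the difference between 25 and 30 months was larger than the spread between steers. In EX these 5 held 2.18 ± 0.291%, 2.39 ± 0.666% and 1.94 ± 0.27%, and the difference was smaller than the spread at 25 months. The share of all 6 on library totals at 30 months minus the mean of the earlier ages was 4.72 percentage points in steer 1, −1.13 in steer 2 and −1.52 in steer 3 in EX, and 3.71, −1.52 and −2.32 points in FC. Steer 1 was thus higher, and steers 2 and 3 lower, in both fractions.

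Within the family, bta-miR-16b was by far the most abundant, with 84.9 ± 2.46% of the family's counts in EX and 85.3 ± 2.44% in FC (n = 9 libraries). bta-miR-16a followed with 11.3 ± 1.66% and 11 ± 1.53%. Both miR-16 together held 93.9 to 97.7% of the family in EX and 95.0 to 97.8% in FC. bta-miR-15a and bta-miR-15b held 1.69% and 1.77% in EX and 1.63% and 1.55% in FC, so their order changed between fractions and their difference lay within the spread. bta-miR-195 held 0.281% and 0.362%, and bta-miR-497 0.102% and 0.111%. By mean CPM, bta-miR-16b ranked 1 among all miRNAs in both fractions, bta-miR-16a 15 and 17, bta-miR-15b 55 and 60, bta-miR-15a 58 and 57, bta-miR-195 111 and 97, and bta-miR-497 146 and 140. A read spans a whole miRNA, so no length enters, but ligation does not capture every sequence equally and the order is one of reads.

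bta-miR-16b was at 88696, 108943 and 144138 CPM in steers 1, 2 and 3 in EX at 20 months. It was at 154656, 101861 and 126052 CPM at 25 months and at 172354, 96040 and 124712 CPM at 30 months. In FC it was at 105129, 104827 and 137758 CPM, then 116438, 85309 and 129309 CPM, then 149877, 84579 and 117513 CPM. Ages overlapped in both fractions, and steer 1 was highest at 30 months in both fractions while steers 2 and 3 were highest at 20 months. In the edgeR quasi-likelihood test, bta-miR-16b at 30 months against 25 months had a log2 fold change of −0.42 (SE 0.41, FDR = 0.556) in EX and −0.04 (SE 0.29, FDR = 0.902) in FC. On library totals these values were 0.03 and 0.08, so its sign rested on the scaling.

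bta-miR-16a differed most in EX at 25 months, where it was at 25085, 16634 and 14900 CPM, against 13645, 14612 and 18658 CPM at 20 months and 17855, 12793 and 12795 CPM at 30 months. Its FC levels were 12995, 15285 and 18581 CPM, 17046, 14154 and 15307 CPM, and 15246, 11274 and 11716 CPM. From 25 to 30 months its CPM was lower in 3 of 3 steers in each fraction, but the groups overlapped. With TMM factors set over both fractions together, it was higher in 1 of 3 steers in FC, steer 1. Those factors were 1.07 and 0.956 for FC of steer 1 at 25 and 30 months. The factors of the FC fit were 1.15 and 1.10, and with them bta-miR-16a was lower at 30 months in steer 1 too. The log2 fold change was −0.82 (SE 0.30, FDR = 0.112) in EX and −0.40 (SE 0.26, FDR = 0.296) in FC, and neither passed the test.

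**Figure D1:**
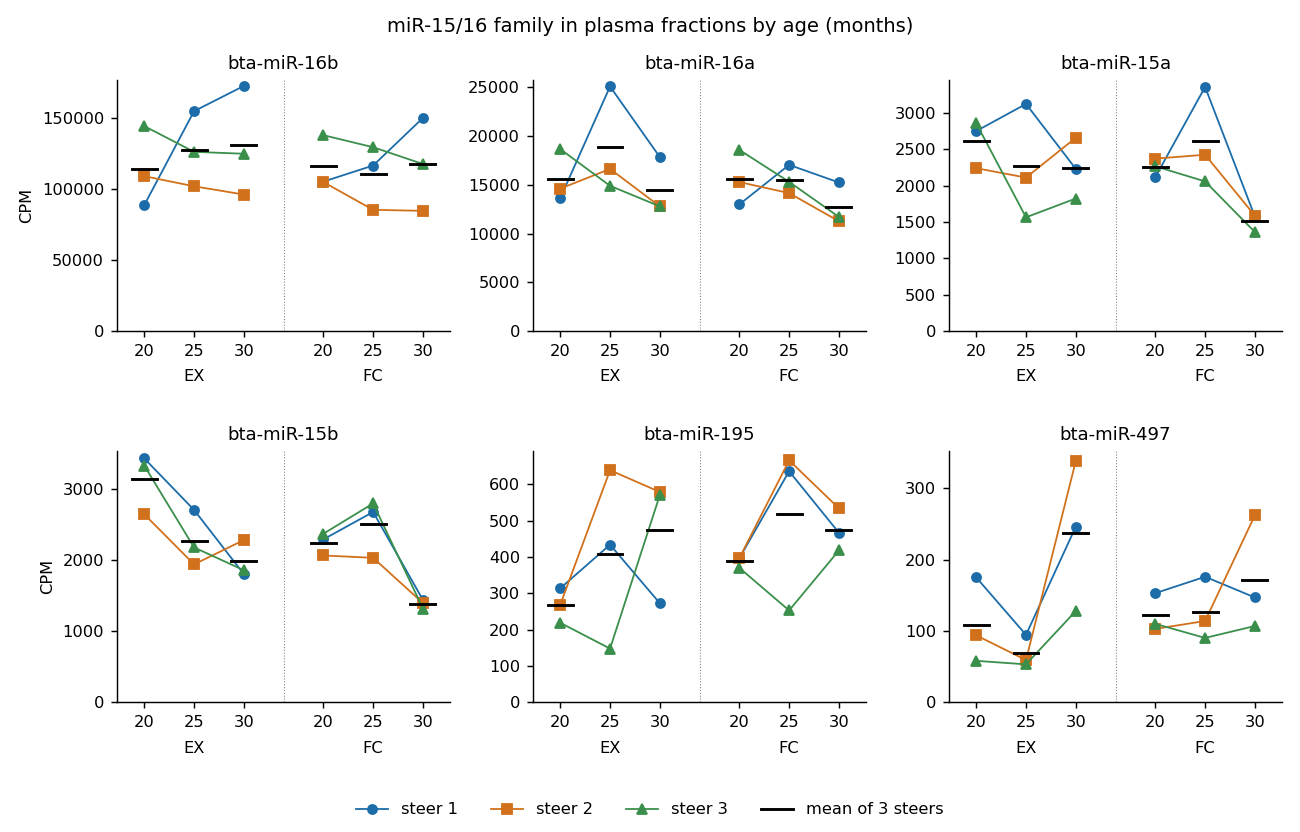
CPM of each member (vertical axis, from 0) at 20, 25 and 30 months (horizontal axis) in EX on the left and FC on the right of each panel. Each marker is 1 library, lines join the libraries of a steer and black bars are means of 3 steers. bta-miR-15a and bta-miR-15b in FC lie at 1317 to 1588 CPM at 30 months, below every library of 20 and 25 months, while bta-miR-16b shows no common direction.

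bta-miR-15a and bta-miR-15b were the members that changed with age in FC. bta-miR-15a was at 2117, 2371 and 2266 CPM at 20 months, 3356, 2425 and 2058 CPM at 25 months and 1577, 1588 and 1363 CPM at 30 months. bta-miR-15b was at 2287, 2061 and 2366 CPM, 2671, 2028 and 2791 CPM, and 1438, 1394 and 1317 CPM. For both, every library at 30 months lay below every library of the earlier ages. From 25 to 30 months bta-miR-15a fell by 0.90 on the log2 scale (SE 0.23, FDR = 0.0299) and bta-miR-15b fell by 0.98 (SE 0.25, FDR = 0.0313), a factor of 1.86 and 1.97, in 3 of 3 steers each. They were 2 of 6 members called lower at FDR < 0.05, where 11.7% of all 358 miRNAs tested in FC were called lower and 21.8% were lower without overlap in CPM. The median of all 358 was −0.20, so both lay below the general shift. When a steer was left out the calls were lost, with FDR of 0.0929 to 0.162 for bta-miR-15a and 0.062 to 0.154 for bta-miR-15b, and the log2 fold changes were −1.02 to −0.78 and −1.16 to −0.63. On library totals, where 9.78% of all miRNAs were called lower, bta-miR-15b kept its call (FDR = 0.037) and bta-miR-15a did not (FDR = 0.0596).

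Against 20 months, which shares the 30 months libraries with the comparison above, 0 of 6 members were called in FC by edgeR (background 7.26%). DESeq2's Wald test also called 0 of 6, where it called 77 of 358 miRNAs over all. At an unadjusted p under 0.05 in edgeR there were 2 of 6, beside 29.1% of all miRNAs. These were bta-miR-15a (log2 fold change −0.58, SE 0.23, FDR = 0.135) and bta-miR-15b (−0.68, SE 0.25, FDR = 0.113), both without overlap in CPM, where 22.1% of all miRNAs were lower without overlap.

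In EX, bta-miR-15b was called at 30 months against 20 months and bta-miR-15a was not. bta-miR-15b was at 3422, 2638 and 3320 CPM at 20 months, 2700, 1936 and 2174 CPM at 25 months and 1800, 2277 and 1854 CPM at 30 months. It was lower at 30 than at 20 months in 3 of 3 steers, without overlap, where 21.4% of all miRNAs were lower without overlap. It fell by 1.00 on the log2 scale (SE 0.23, FDR = 0.0226), the only call of 6 members, against 10.4% of all 345 miRNAs tested in EX that were called lower. The median of all miRNAs in this comparison was −0.64, with 13 called higher and 36 lower, and on library totals 14 and 17. Blood-cell miRNAs called lower in it were bta-miR-451 (−1.84, FDR = 0.0469), bta-miR-150 (−3.93, FDR = 0.00693) and bta-miR-342 (−2.71, FDR = 0.00693). On library totals bta-miR-451 lost its call (−1.47, FDR = 0.0918), and bta-miR-150 and bta-miR-342 kept theirs (FDR = 0.00713 each). The summed EX level of the red-cell list at 20 months ranged from 25390 to 75485 CPM and that of the lymphocyte list from 155917 to 202839 CPM. Their part was not tested. On library totals the log2 fold change of bta-miR-15b was −0.65 with a median of −0.30, and the call was lost (FDR = 0.107). The call was also lost without any one steer, with FDR of 0.0896 to 0.109. Over all EX miRNAs the calls without steer 1, 2 or 3 were 0, 15 and 13, against 49 with all steers. bta-miR-15a in EX was at 2750, 2240 and 2856 CPM, 3123, 2111 and 1565 CPM, and 2231, 2658 and 1823 CPM, with overlap at all ages and a log2 fold change of −0.59 (SE 0.25, FDR = 0.153) from 20 to 30 months.

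From 25 to 30 months in EX, 0 of 6 members were called by edgeR, where 14.8% of all miRNAs were. At an unadjusted p under 0.05 there were 2 of 6, bta-miR-15b (−0.66, SE 0.23, FDR = 0.0951) and bta-miR-16a, beside 29.6% of all. DESeq2's Wald test called 1, bta-miR-16a (FDR = 0.0489) and 28.4% of all miRNAs, a count of members near that background. The scaling matters here. The median log2 fold change of all EX miRNAs was −0.51 with the TMM factors and −0.04 with library totals, and 14 miRNAs were called higher and 37 lower with TMM against 23 and 23 on library totals. The TMM factors were 1.17 to 1.24 in the EX libraries at 30 months and 0.742 to 0.984 at 25 months. From 20 to 25 months 0 of 6 members were called in either fraction by edgeR or DESeq2, and 0 of 6 had an unadjusted p under 0.05. Of all miRNAs edgeR called 0.290% in EX and 0 in FC, and DESeq2's Wald test 3 of 345 and 0 of 358. An unadjusted p under 0.05 in edgeR was reached by 8 of 345 in EX and 13 of 358 in FC, so the member counts lay near the background.

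**Figure D2:**
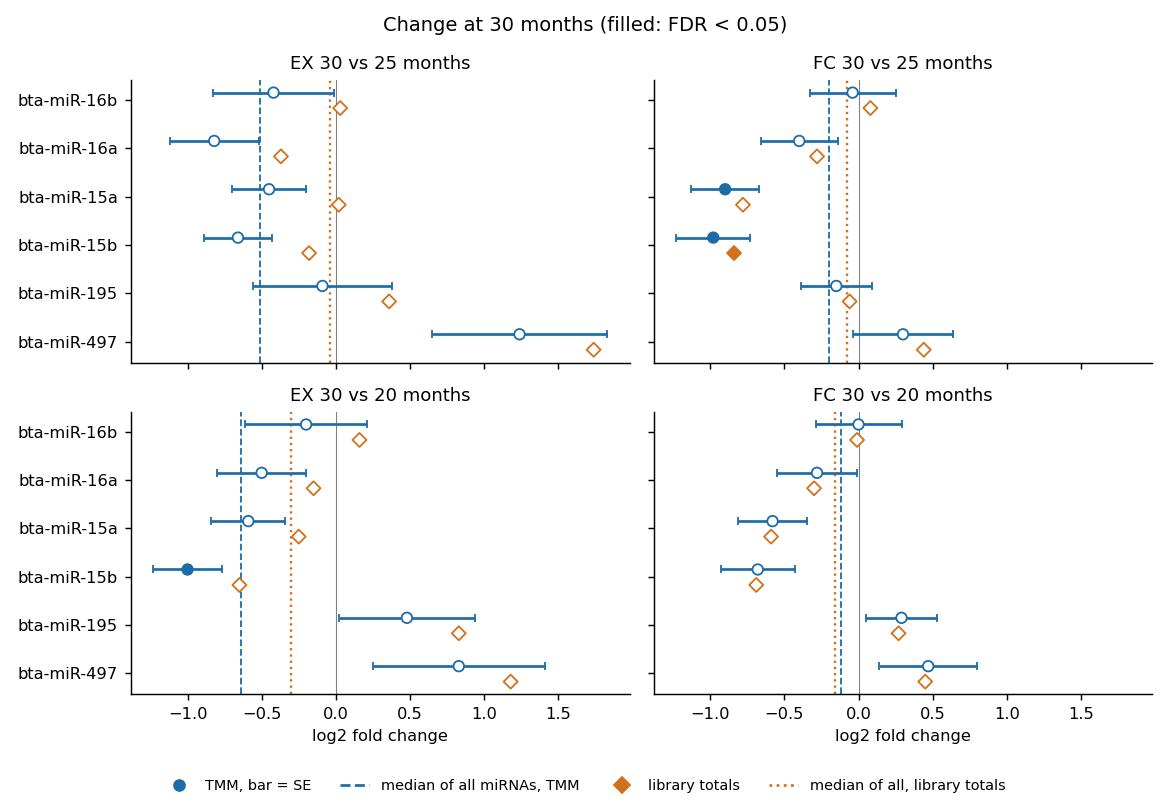
Log2 fold change at 30 months (horizontal axis) of each member against 25 months (top) and 20 months (bottom), in EX (left) and FC (right). Circles are edgeR estimates with TMM and bars their SE, diamonds are estimates on library totals, filled symbols have FDR < 0.05, and vertical lines are medians of all miRNAs tested. In EX at 30 against 25 months the TMM values lie to the left of the library-total values by about the gap between the medians, −0.51 and −0.04, while in FC the values lie close together.

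bta-miR-195 and bta-miR-497, neighbours in the genome, were the least abundant and most variable members. bta-miR-195 was at 314, 269 and 219 CPM in EX at 20 months, 434, 639 and 148 CPM at 25 months and 273, 579 and 570 CPM at 30 months, a range of 4.31-fold over 9 libraries. In FC it was at 397, 397 and 370 CPM, 636, 666 and 253 CPM, and 467, 534 and 418 CPM. At 30 months it was above all 20 months libraries in FC, as were 14.8% of all miRNAs without overlap, but the test was not passed (log2 fold change 0.29, SE 0.24, FDR = 0.442).

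bta-miR-497 was at 175, 93.9 and 58.2 CPM in EX at 20 months, 94.6, 59.3 and 53.3 CPM at 25 months and 246, 338 and 128 CPM at 30 months. From 25 to 30 months it was higher in 3 of 3 steers with no overlap between the groups, where 17.97% of all miRNAs were higher without overlap. Its log2 fold change was 1.24 (SE 0.59, FDR = 0.191), the opposite sign to the median of all, and it did not pass the test. Limma on log2(CPM + 1) gave 1.70 with FDR = 0.0496, where 9.57% of all miRNAs were called higher. The filter of CPM > 5 in all 9 libraries gave 1.29 with FDR = 0.0474, where 15.3% of the miRNAs left were called higher. In FC bta-miR-497 was at 153, 103 and 110 CPM, 176, 114 and 90.3 CPM, and 147, 262 and 107 CPM, with overlap throughout. The ratio of bta-miR-195 to bta-miR-497 in EX was 1.79, 2.86 and 3.75 at 20 months. It was 4.58, 10.8 and 2.78 at 25 months, then 1.11, 1.71 and 4.44 at 30 months, so this pair did not keep a fixed proportion.

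A ratio of members within a library does not depend on how libraries are scaled. These ratios were chosen after the values were seen and are given without a test. In FC the sum of bta-miR-16a and bta-miR-16b over the sum of bta-miR-15a and bta-miR-15b was 26.8, 27.1 and 33.7 at 20 months and 22.1, 22.3 and 29.8 at 25 months. It was 54.8, 32.1 and 48.2 at 30 months. From 25 to 30 months it went up in each steer, by 1.31, 0.53 and 0.69 on the log2 scale. In EX it was 16.6, 25.3 and 26.4, then 30.9, 29.3 and 37.7, then 47.2, 22.1 and 37.4, and from 25 to 30 months the log2 changes were 0.61, −0.41 and −0.01. The balance between miR-16 and miR-15 thus moved one way in all 3 steers in FC, and in no common direction in EX. In EX it was higher at 25 than at 20 months in 3 of 3 steers (log2 0.90, 0.21 and 0.52), and in FC it was lower in 3 of 3 (−0.28, −0.28 and −0.18).

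The ratio of bta-miR-16b to bta-miR-16a was nearly the same in both fractions of a plasma sample. At 30 months it was 9.65, 7.51 and 9.75 in EX, beside 9.83, 7.50 and 10 in FC. The EX values at 25 months were 6.17, 6.12 and 8.46, beside 6.83, 6.03 and 8.45 for FC. At 20 months EX had 6.50, 7.46 and 7.73, and FC had 8.09, 6.86 and 7.41. The log2 difference between fractions reached 0.32 in steer 1 at 20 months and 0.15 in steer 1 at 25 months, and was −0.12 to 0.04 in the other samples. From 25 to 30 months the ratio went up in 3 of 3 steers in both fractions, by 0.38 ± 0.23 in EX and 0.36 ± 0.14 in FC (log2, mean ± SD, n = 3). The uncertain split of shared reads touches this ratio in particular, and its part was not tested.

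**Figure D3:**
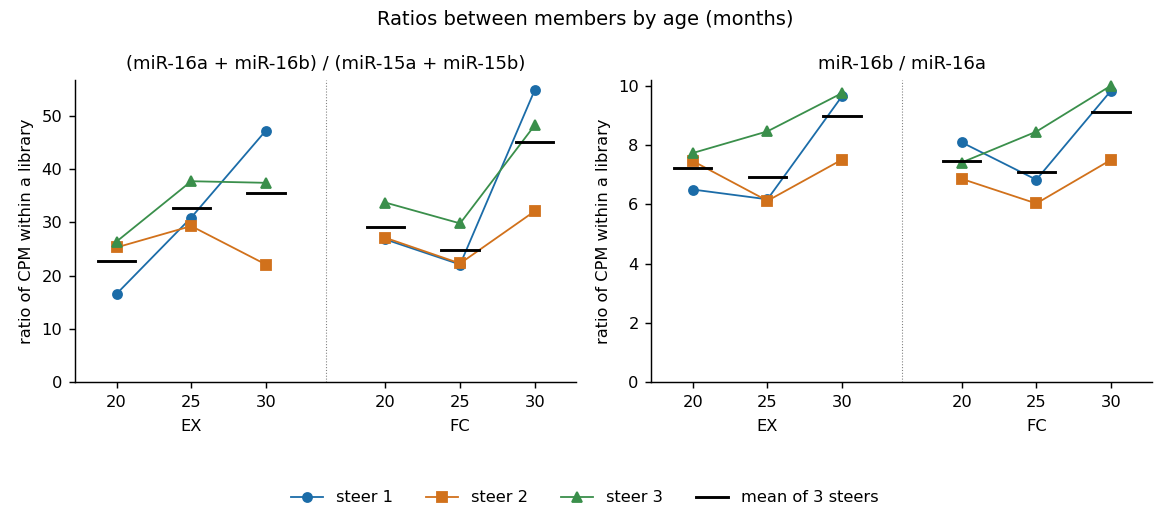
Ratio of CPM within a library (vertical axis, from 0) at 20, 25 and 30 months (horizontal axis) in EX and FC, for both miR-16 over both miR-15 (left) and bta-miR-16b over bta-miR-16a (right). Markers are libraries, lines join the libraries of a steer and black bars are means of 3 steers. The left ratio in FC goes from 22.1 to 29.8 at 25 months to 32.1 to 54.8 at 30 months, and the right ratio follows the same course per steer in both fractions.

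EX and FC were then compared within each plasma sample over the 330 miRNAs selected in both fractions. At 20 months bta-miR-15b was lower in FC than in EX in 3 of 3 steers, by 0.58, 0.36 and 0.49 as the drop in log2 CPM, without overlap. Its log2 fold change was −0.50 (SE 0.09, FDR = 0.0083), the only call of 6 members, where 4.24% of all miRNAs were called lower in FC and 7.58% were lower without overlap. In the same comparison 2 of 3 red-cell miRNAs and both lymphocyte miRNAs were called lower in FC, among them bta-miR-451 (−1.16, FDR = 0.00762), bta-miR-486 (−0.70, FDR = 0.00103) and bta-miR-150 (−0.98, FDR = 0.00762), as was bta-miR-23a (−0.32, FDR = 0.022). Their part in the value of bta-miR-15b was not tested. The call of bta-miR-15b was lost when a steer was left out (FDR = 0.0665 to 0.0899), and with steer in place of plasma sample as the block (FDR = 0.518) or no block (FDR = 0.615). bta-miR-195 at 20 months was higher in FC in 3 of 3 steers without overlap, as were 13.6% of all miRNAs, and did not pass the test (0.53, SE 0.24, FDR = 0.275).

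At 25 months 0 of 6 members were called by edgeR (background 6.67%), 3 of 6 had an unadjusted p under 0.05 (16.97% of all), and DESeq2 called 2 (13.03% of all), bta-miR-16a and bta-miR-497. bta-miR-16a had a log2 fold change of −0.33 (SE 0.10, FDR = 0.0997) and bta-miR-16b of −0.29 (SE 0.10, FDR = 0.189), while bta-miR-497 had 0.79 (SE 0.32, FDR = 0.251) and was higher in FC in 3 of 3 steers. Of the red-cell miRNAs, bta-miR-451 (−0.87, FDR = 0.0335, and 0.077 with library totals) and bta-miR-486 (−0.88, FDR = 0.000412) were called lower in FC at this age, and their part in the miR-16 values was not tested.

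At 30 months 0 of 6 members were called with TMM (background 27.6%), 2 of 6 had an unadjusted p under 0.05 (40.6% of all), and DESeq2 called 2 (45.8% of all), counts near the background. The outcome turned on the scaling, because the median of all 330 miRNAs was 0.74 with TMM and 0.32 with library totals, and 78 were called higher and 13 lower with TMM against 46 and 46 on library totals. In CPM, bta-miR-15a and bta-miR-15b were both lower in FC in 3 of 3 steers without overlap, where 13.03% of all miRNAs were. bta-miR-15a had −0.10 (SE 0.10, FDR = 0.465) with TMM and −0.53 (FDR = 0.00873) on library totals, and bta-miR-15b had −0.06 (SE 0.09, FDR = 0.679) and −0.48 (FDR = 0.00935), where 13.9% of all miRNAs were called lower on library totals. bta-miR-16a and bta-miR-16b had 0.27 and 0.30 with TMM and −0.15 and −0.13 on library totals, and passed the test on neither scale. Relative to the median of all, each of the 6 members was on the lower side with TMM, from −0.84 for bta-miR-15a to −0.22 for bta-miR-195. The red-cell bta-miR-486 was called lower in FC with TMM (−0.29, FDR = 0.0317) and on library totals (−0.72, FDR = 0.000595). bta-miR-451 (−0.68, FDR = 0.0446) and bta-miR-23a (−0.32, FDR = 0.0133) were called lower on library totals only. All of these were lower without overlap in CPM. bta-miR-144, bta-miR-150 and bta-miR-342 were called on neither scale, and the part of blood cells was not tested.

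**Figure D4:**
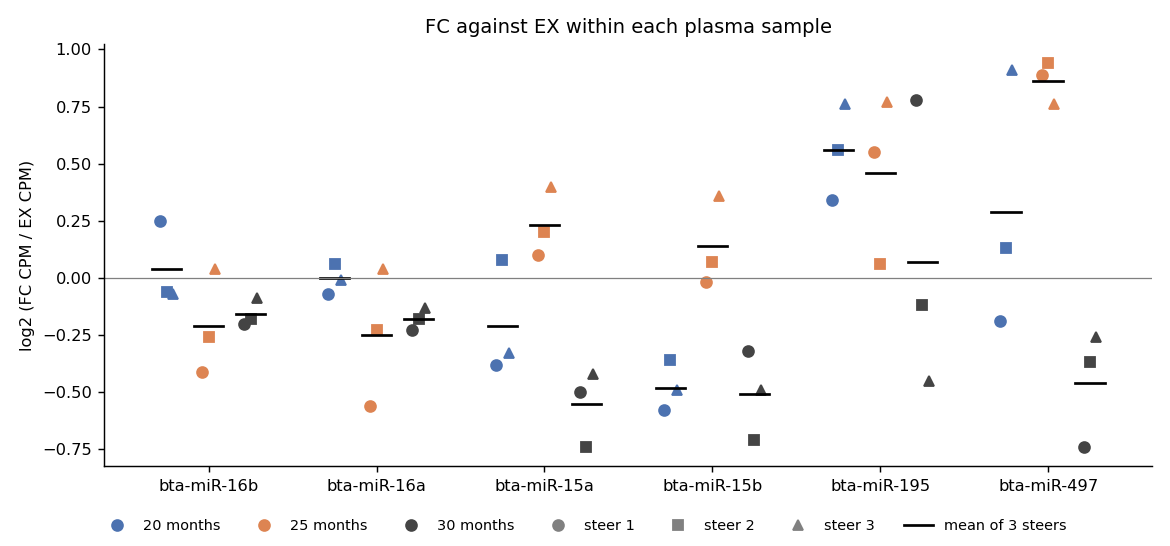
Log2 of FC CPM over EX CPM within a plasma sample (vertical axis) for each member (horizontal axis), with colours for age, marker shapes for steer and black bars for means of 3 steers. bta-miR-15b lies below 0 in every steer at 20 and 30 months, and bta-miR-497 lies above 0 in every steer at 25 months and below 0 in every steer at 30 months.

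The change from 25 to 30 months was also compared between the fractions by a contrast of the fraction effects. bta-miR-16a and bta-miR-16b were called, with a change 0.60 (SE 0.14, FDR = 0.022) and 0.58 (SE 0.15, FDR = 0.0305) higher in FC than in EX on the log2 scale, 2 of 6 members, where 12.4% of all miRNAs were called higher. The median of all 330 was 0.61, so both stood at the general shift. The red-cell bta-miR-486 (0.59, FDR = 0.0153) and the lymphocyte bta-miR-150 (0.93, FDR = 0.0413) were called in the same direction with TMM, and their part was not tested. Both miR-16 calls were lost with steer as the block (FDR = 0.406 and 0.583), with no block (FDR = 0.427 and 0.661) and without any one steer (FDR = 0.067 to 0.109 and 0.0582 to 0.147). Of the alternatives tried, 1 of 13 kept the call of bta-miR-16a and 1 of 14 that of bta-miR-16b. On library totals, with a median of 0.10, they were at 0.09 (FDR = 0.746) and 0.07 (FDR = 0.789). There bta-miR-15a (−0.77, FDR = 0.0248) and bta-miR-15b (−0.63, FDR = 0.0263) were called instead, with a lower change in FC. On library totals 5.45% of all miRNAs were called in that direction, and the calls over all split into 17 higher and 18 lower, against 41 and 3 with TMM. Their values with TMM were −0.26 (SE 0.14, FDR = 0.275) and −0.12 (SE 0.13, FDR = 0.596). On both scales the miR-15 values lay below the miR-16 values. The ratio of miR-16 to miR-15, which needs no scaling, was higher in FC than in EX by 0.69, 0.10 and 0.36 on the log2 scale at 20 months. At 25 months it was lower in FC by 0.48, 0.39 and 0.34, and at 30 months it was higher by 0.21, 0.54 and 0.37.

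The likeness of 2 miRNAs was measured as the SD of their log2 ratio over the 18 libraries, among 329 other miRNAs, as a description. A small SD means that the ratio hardly varied, and the libraries share steers and plasma samples. The miRNA most like bta-miR-16b was bta-miR-16a (0.24), followed by bta-miR-25 (0.25) and bta-miR-26b (0.36), against a median of 1.16 over all. bta-miR-15a was nearest to bta-miR-23b-3p (0.24), bta-miR-10174-3p (0.25) and bta-miR-23a (0.25), the reference of the haemolysis index, and bta-miR-15b came next with 0.26. bta-miR-195 was nearest to bta-miR-143 (0.40), bta-miR-21-5p (0.44) and bta-miR-215 (0.44). Its genomic neighbour bta-miR-497 stood at 0.73, rank 71. bta-miR-15a and bta-miR-16a, also neighbours in the genome, were at 0.30, and bta-miR-15b and bta-miR-16b at 0.49. Reads divided between bta-miR-16a and bta-miR-16b can steady their ratio, so their SD is not comparable with that of the genomic pairs.

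The order of the steers was compared between fractions. Of 18 combinations of member and age, the lowest steer was the same in EX and FC in 12, the highest in 13, and the whole order in 9.

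The other miRNAs of the extended family were scarce. bta-miR-424-5p, which shares the seed, was at 71.1, 62.3 and 66.0 CPM in FC at 20 months, 93.6, 69.6 and 68.6 CPM at 25 months and 14.4, 27.4 and 42.6 CPM at 30 months. It fell from 25 to 30 months in FC by 1.65 on the log2 scale (SE 0.41, FDR = 0.0295), in 3 of 3 steers and without overlap. Of all 358 miRNAs tested in FC, 11.7% were called lower and 21.8% were lower without overlap. On library totals the log2 fold change of bta-miR-424-5p was −1.52 (FDR = 0.0546). In EX it was at 167, 54.7 and 28.1 CPM, 18.7, 103 and 23.8 CPM, and 96.1, 162 and 36.9 CPM, and its values overlapped at all ages. bta-miR-503-5p was listed at 0 in all 9 EX libraries, where 3 counts correspond to 1.08 to 3.03 CPM. In FC it was at 4.05, 4.57 and 6.21 CPM at 20 months, 5.80, 8.48 and 2.89 CPM at 25 months and 2.26, 0 and 0 CPM at 30 months, where 3 counts correspond to 0.616 to 0.830 CPM. It did not pass the test (FDR = 0.122 for 30 against 25 months in FC).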

How the data were processed

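EX and FC RNA from 9 plasma samples was sequenced as small RNA. The authors trimmed the reads (cutadapt 5.0, Trimmomatic 0.39), mapped them to a Japanese Black genome built on ARS-UCD1.2 and counted miRBase miRNAs with miRDeep2. They deposited estimated counts, not whole where reads are shared, and CPM (a signal scaled to the library total). In 4 FC libraries part of the counts stood 1 row off the CPM table, and 356 values were recomputed from CPM (tolerance 0.001 relative or 0.02 counts). Of the members' 108 counts, 0 differed.

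Counts were rounded, filtered (CPM > 5 in at least 3 of 9 libraries of a fraction), TMM-scaled and fitted in edgeR 4.0.16 (R 4.3.3) by the quasi-likelihood F test, with Benjamini-Hochberg adjustment over all miRNAs tested. FDR is that adjusted p, and a call is FDR < 0.05. Ages were compared with steer as a block, fractions with plasma sample as a block. The steers are the same at each age per the study's animal records, which pairs the samples. Deviations of the same steer correlated at −0.0408 to 0.0955 in EX and −0.0258 to 0.229 in FC. Those of EX and FC of a plasma sample correlated at 0.252 to 0.428 at 20 months and 0.135 to 0.325 at 25 months. At 30 months they correlated only at −0.0192 to 0.0311. No library was a copy of another of its group (18 pairs compared, chi-square of 196 or more per degree of freedom). P-values between ages measure how far the change with age differed among the 3 steers. Those between fractions measure the spread of FC against EX over 9 plasma samples of those steers.

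Alternatives used DESeq2 1.42.0, limma 3.58.1 with a pseudocount of 1 CPM, other scalings and filters, and left out each steer. Ratios used CPM, and likeness TMM-scaled log2 CPM with a prior count of 2. Python 3.11.15 (numpy 2.4.6, pandas 2.3.3) made tables and matplotlib 3.10.9 the figures. The scripts were tested on simulated data. The members, lists and named miRNAs were chosen with earlier results of these data known. Named are the 6 members, bta-miR-424-5p, bta-miR-503-5p, the blood-cell lists (red cells bta-miR-451, bta-miR-486 and bta-miR-144 with the reference bta-miR-23a, lymphocytes bta-miR-150 and bta-miR-342, hepatocytes bta-miR-122 and bta-miR-885) and the 3 miRNAs most like bta-miR-16b, bta-miR-15a and bta-miR-195. The family share is a sum over the members and was not tested. Sequences come from the deposited count table, and RefSeq (ARS-UCD2.0) gave neighbouring genes only.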

Additional observations from a re-analysis of the deposited data

Results flagged for a closer look

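A difference between EX and FC in the change from 25 to 30 months was called for bta-miR-16a (0.60 on the log2 scale, edgeR FDR = 0.022) and bta-miR-16b (0.58, FDR = 0.0305). The median of all 330 miRNAs was 0.61, and on library totals the values were 0.09 and 0.07.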

How the results depend on the processing

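Of 794 values of the members under alternatives, 680 kept direction and side of the threshold, 46 lost a call and 22 gained one. The other 46, from 18 of 60 member results, changed sign with no call on either side. Unless a value is named, the cause was not tested. The count of members called in EX at 30 against 25 months was 0 and became 1 with the DESeq2 Wald test (98 of 345 over all), 1 without the replicate block (68 of 345), 1 with limma (74 of 345) and 2 with CPM > 5 in all 9 libraries (60 of 170). In EX at 30 against 20 months it was 1 (49 of 345 over all). It became 0 with library totals (31 of 345), limma (62 of 345), a fold change rule of |log2| > 1, or any steer left out (range 0 to 0). In FC at 30 against 25 months it was 2 and became 1 with library totals (51 of 358 over all) or limma (72 of 358). It became 0 with the deposited rows, the fold change rule or any steer left out (range 0 to 0). With the deposited rows 10 of 372 miRNAs were called in all, against 67 of 358. FC against EX at 20 months gave 1 (31 of 330 over all). It gave 0 with no filter (23 of 584), no replicate block (2 of 330) or steer as the replicate block (5 of 330). The fold change rule or any steer left out also gave 0. At 25 months FC against EX gave 0, and 2 with DESeq2 Wald (43 of 330 over all). At 30 months it gave 0, and 2 (bta-miR-15a and bta-miR-15b) with library totals, DESeq2 size factors, DESeq2 Wald or limma. Over all miRNAs these settings called 92, 87, 151 and 112 of 330, against 91 in the main fit. With a steer left out the count of members was 0 to 2 (2 without steer 1, bta-miR-16a and bta-miR-16b, with 68 of 295 over all). The difference between fractions gave 2 (44 of 330 over all). It gave 0 with DESeq2 size factors, no filter, the stricter filter, no replicate block or steer as the replicate block. The deposited rows, both miR-16 summed, the fold change rule or any steer left out also gave 0. DESeq2 Wald gave 1 (bta-miR-497), with 59 of 330 called over all. With library totals or limma the count of members was also 2 (35 of 330 over all in each), but bta-miR-15a and bta-miR-15b. The family share in EX at 30 months minus the earlier ages was 0.69 points, and −3.4 with the TMM effective library size, −1.75 without bta-miR-150 in the total, −0.341 without bta-miR-16b, and −1.33, 1.6 and 1.79 without steer 1, 2 and 3, so its sign was not stable. With 2 steers few residual degrees of freedom remain. Without steer 1, 2 or 3, the calls over all FC miRNAs at 30 against 25 months were 26, 51 and 10. For EX at 30 against 20 months they were 0, 15 and 13. For FC against EX at 20 months they were 13, 9 and 12, and for the difference between fractions 10, 0 and 2. The replicate block changed no other call.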

Other observations

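Of the hepatocyte miRNAs, bta-miR-885 was called lower in FC at 30 months against 25 months, from a mean of 22.3 CPM to 0.175 CPM with 2 of 3 libraries at 0. bta-miR-122, which makes up nearly all of their sum, was at 24776, 75377 and 18934 CPM in FC at 25 months and 23010, 74438 and 97366 CPM at 30 months, higher only in steer 3, and did not pass the test (edgeR log2 fold change 0.72, FDR = 0.287). Neither was called in EX. Their sum at 25 months ranged from 12268 to 73054 CPM (EX) and from 18960 to 75397 CPM (FC), and at 30 months from 35472 to 108600 CPM (EX) and from 23010 to 97366 CPM (FC). A small group of miRNAs carries the family's seed shifted by a base, at bases 1 to 7. These were 3 of the 1071 miRNAs, among them bta-miR-103 and bta-miR-107. bta-miR-103 was the second most like bta-miR-16a over the 18 libraries, with an SD of the log2 ratio of 0.26. bta-miR-497 was most like bta-miR-3431, with an SD of 0.42. These were named after the values were seen.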
